A study of Caenorhabditis elegans with 2 samples.

Results

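The tubulin and actin genes described here are 10 protein-coding genes of Caenorhabditis elegans, taken by name from the Ensembl annotation of the WBcel235 genome and all found there, among 19973 nuclear protein-coding genes. They are the alpha-tubulin genes tba-1 and tba-2, the beta-tubulin genes tbb-1 and tbb-2, the gamma-tubulin gene tbg-1 and the actin genes act-1 to act-5. The measurement is chromatin immunoprecipitation followed by sequencing (ChIP-seq), which lists the genome regions enriched with a chosen protein, here the product of R02D3.7 (rcat-1 in the annotation) carrying an eGFP tag. The 1 group has 2 libraries, labelled biological replicates 1 and 2, each from whole worms of strain OP218 at the third larval stage (L3), of mixed sex and unknown age. The strain carries the mutation unc-119(ed3) on chromosome III and the inserted transgene wgIs218, which both libraries share. No control sample is analysed here, so regions that depend on the tagged protein and regions listed whatever the tagged protein cannot be told apart.

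Alpha- and beta-tubulin pair into the dimers that polymerise into microtubules, and gamma-tubulin sits at centrosomes and nucleates them. Actin polymerises into the filaments of muscle, of the cell cortex and of microvilli. In the worm, tba-1, tba-2, tbb-1, tbb-2 and tbg-1 are used in dividing cells of the early embryo and broadly thereafter, act-1 to act-4 serve muscle and other tissues, and act-5 builds the microvilli of the intestine and excretory canal. Most worm transcripts are trans-spliced, so an annotated start can be a splice site downstream of the place where transcription begins.

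In the authors' reproducible list 4 of the 10 genes had a promoter peak. In the lists without that filter all 10 had a listed promoter region, some of them with weak evidence. A promoter peak is a region whose summit, the position the peak caller marked in it, lay in a window that begins 1000 bp before a transcript start and ends 200 bp after it. The reproducible list holds 1584 peaks kept by the irreproducible discovery rate (IDR), which scores how well the order of regions repeats between replicates, and 7.71% of all protein-coding genes had a summit of that list in their window. The genes with one were tba-2, tbb-1, tbb-2 and act-2. A relaxed list of 30000 regions from the pooled replicates is labelled as peaks and background, so a listed region need not be enriched. It gave a promoter summit to 10 of 10 tubulin and actin genes and to 41.7% of all genes. Both replicate lists, with 30000 and 29367 regions, gave one to 10 of 10 and to 28.0% of all genes. The deposited −log10 q is low where evidence for a region is weak. For the pooled region of highest signal in the window it was 0.126 at act-3, 0.203 at tba-1, 0.444 at act-5 and 0.823 at act-1. It was 1.74 at tbg-1, 2.90 at act-4 and from 2.98 to 3.43 at the 4 genes with a reproducible peak.

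The sequence under 4 of the summits is shown. Of these windows 3 hold the word GCGCGC and 2 of those also hold TTTCGNATC, while the fourth, from act-4, holds neither. Among the 10 genes GCGCGC was in the windows of tbb-1, tbb-2 and act-2 only, and all 3 have a reproducible peak. The window of tba-2, which also has such a peak and is not shown, holds neither word. The words were picked from these windows, as given below, so this is a description only. Each run is the 200 bp around the summit of the leading pooled region, which is the promoter region of highest signal. It is written 5′ to 3′ on the strand of the gene from the ce11 reference (the UCSC name of WBcel235). The windows are chrIII:10742572-10742771 on the minus strand for tbb-1, chrIII:4018181-4018380 on the minus strand for tbb-2, chrV:11078440-11078639 on the minus strand for act-2 and chrX:4962055-4962254 on the plus strand for act-4. Capitals mark the words GCGCGC and TTTCGNATC, where N is any base.
tbb-1: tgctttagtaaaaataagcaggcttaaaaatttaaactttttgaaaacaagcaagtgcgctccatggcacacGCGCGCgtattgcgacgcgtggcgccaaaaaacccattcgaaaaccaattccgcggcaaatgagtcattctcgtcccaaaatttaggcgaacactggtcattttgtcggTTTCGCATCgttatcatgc
tbb-2: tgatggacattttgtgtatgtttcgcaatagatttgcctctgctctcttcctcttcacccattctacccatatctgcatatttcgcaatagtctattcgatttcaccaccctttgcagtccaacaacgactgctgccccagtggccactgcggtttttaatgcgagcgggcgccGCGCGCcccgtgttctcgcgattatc
act-2: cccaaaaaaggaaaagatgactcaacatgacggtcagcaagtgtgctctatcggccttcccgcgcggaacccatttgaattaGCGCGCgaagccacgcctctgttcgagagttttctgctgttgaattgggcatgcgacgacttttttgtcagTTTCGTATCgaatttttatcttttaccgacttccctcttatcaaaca
act-4: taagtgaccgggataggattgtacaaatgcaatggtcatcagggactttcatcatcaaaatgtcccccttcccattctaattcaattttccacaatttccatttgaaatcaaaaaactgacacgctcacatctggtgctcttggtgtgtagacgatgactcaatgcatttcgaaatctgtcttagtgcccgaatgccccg

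The word GCGCGC, which is its own reverse complement, was present in the windows of tbb-1, tbb-2 and act-2, or 3 of 10 genes. The same word was in 14.4% of all IDR windows, in 1.48% of flanking windows centred 500 bp to each side, and in 2.53% of 200 bp windows upstream of all protein-coding gene starts. TTTCGNATC, searched on both strands, was in the windows of tbb-1 and act-2 only among the 10 genes. It was rare everywhere, in 1.58% of IDR windows, 0.884% of flanks and 0.886% of windows upstream of starts. Both words were picked after the 10 windows had been read, so their counts among these genes are a description of these windows and no sign of a site.

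tba-2, an alpha-tubulin gene, had the highest signal of the 10 genes. Its pooled and IDR region at 12966812 to 12967047 of chromosome I had a signal of 227 and rank 209 of 30000, with the summit 120 bp upstream of the more upstream of its 2 annotated starts. That signal, the authors' own value on a scale that no source used here states, exceeded the leading signal of 96.4% of the 8327 genes with a pooled promoter summit. Within the replicate lists the region had signal 114 and rank 254 in replicate 1, and signal 107 and rank 172 in replicate 2. The replicate summits lay 9 bp apart, against a median gap of 22.0 bp over the 1571 IDR peaks matched in both replicates. No other annotated gene had this summit in its promoter window.

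tba-1, which encodes an alpha-tubulin 96.3% identical to that of tba-2, had no reproducible peak in its window. Its leading pooled region had a signal of 16.1 and rank 12806, with a summit 104 bp downstream of the upstream start. The replicates placed their leading regions elsewhere, at 183 bp upstream with signal 14.1 and rank 4124 in replicate 1 and at 485 bp upstream with signal 12.1 and rank 9599 in replicate 2. The pooled region overlapped no region of replicate 2. A strong reproducible peak lay just outside the window, 1075 bp upstream of tba-1, with a pooled signal of 295, rank 154, and replicate ranks of 163 and 144. Its summit was 26 bp and 310 bp upstream of the annotated starts of cox-5B, a cytochrome c oxidase subunit gene that lies 1100 bp away on the opposite strand, so this peak was nearer to cox-5B than to tba-1.

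The beta-tubulin genes tbb-1 and tbb-2 encode proteins that differ at 12 residues, and both had a reproducible peak. For tbb-1 (chromosome III, 10740868 to 10742432, minus strand) the region at 10742480 to 10742863 had a pooled signal of 58.3 and rank 1274, with its summit 240 bp upstream. Replicate 1 gave it signal 31.3 and rank 1221, and replicate 2 signal 28.4 and rank 1664, with summits 20 bp apart. The same summit was 138 bp upstream of rib-2, a glycosyltransferase gene of heparan sulfate synthesis on the opposite strand, and therefore nearer to rib-2 than to tbb-1. Which of the genes a peak in a divergent promoter serves cannot be read from a peak list.

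For tbb-2 (chromosome III, 4015910 to 4017627, minus strand) the summit lay farther out, 654 bp upstream, in a region at 4018089 to 4018472. Its pooled signal was 61.4 and its rank 1186. In replicate 1 the region had signal 47.9, rank 725 and a −log10 q of 3.57. In replicate 2 it had signal 16.0, rank 4983 and a −log10 q of 0.881. The summits were 3 bp apart, so the position repeated closely while the rank did not: the ranks differed 6.87-fold, more than for 95.5% of matched IDR peaks, whose median was 1.48-fold. The summit also lay 164 bp inside the start of the noncoding RNA gene C36E8.10.

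The gamma-tubulin gene tbg-1 (chromosome III, 9626536 to 9629154, minus strand) had a pooled region of signal 30.8 and rank 3374, with its summit 865 bp upstream. Replicate 1 gave signal 16.2 and rank 3147, and replicate 2 signal 13.2 and rank 7763. The summit was 134 bp upstream of rpac-19, a gene for a shared subunit of RNA polymerases I and III that ends 91 bp before tbg-1 on the same strand. The region therefore lay at the start of the neighbouring gene, and no pooled summit lay in the interval between rpac-19 and tbg-1.

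**Figure D1:**
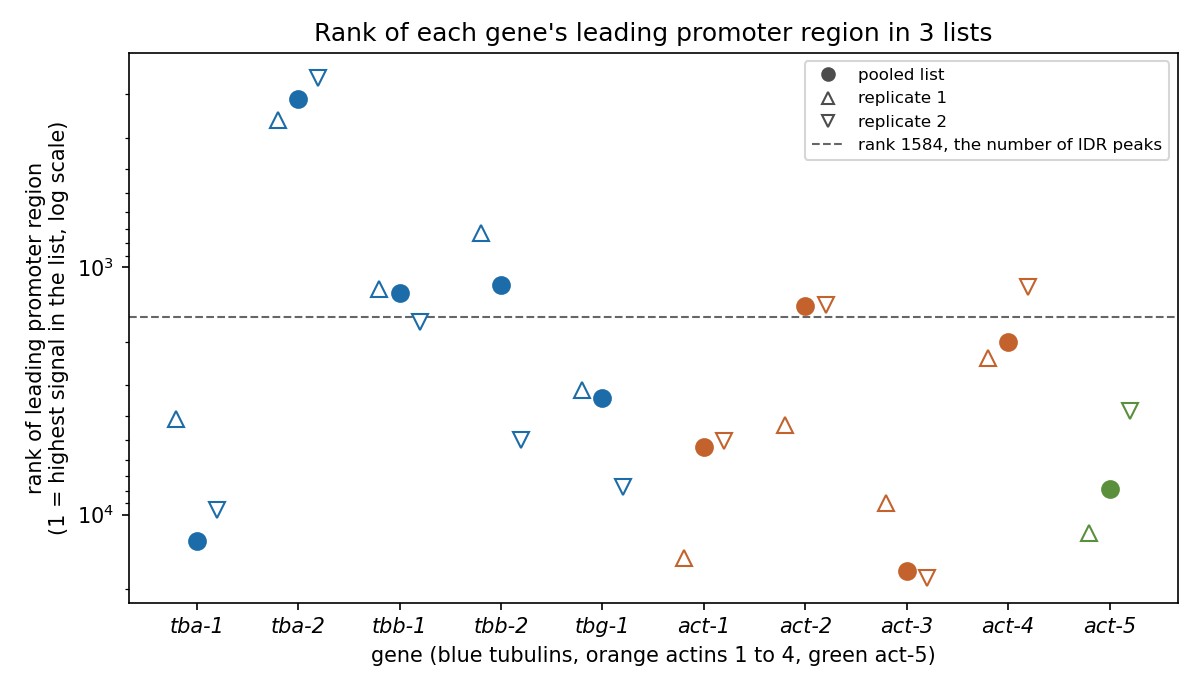
Rank of the leading promoter region (y) of each tubulin and actin gene (x) in the pooled list and in each replicate list, on a log axis with the highest signal at rank 1; each point is 1 gene in 1 list. tba-2 stands at ranks 172 to 254 in all 3 lists, while the other genes range from 725 to 17991.

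act-1, act-2 and act-3 lie within one stretch of chromosome V and encode nearly the same protein. act-1 and act-3 have identical coding sequence, with 0 of 1128 bases differing, and act-2 differs from both at 3 residues. act-2 (11076777 to 11078154, minus strand) was the actin gene with a reproducible peak, at 11078348 to 11078731. Its pooled signal was 54.5 and its rank 1430, with the summit 386 bp upstream. Replicate 1 gave signal 13.7 and rank 4336, and replicate 2 signal 31.3 and rank 1429, with summits 6 bp apart. Starts of the noncoding RNA genes T04C12.24 (plus strand) and T04C12.18 (minus strand) lay nearer, on either side of that summit, at 49 bp and 84 bp.

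act-1 (11081052 to 11082415, plus strand), which faces away from act-2 across 2897 bp, had a pooled signal of 24.1 at rank 5342, with the summit 476 bp upstream. Replicate 1 listed it with signal 7.47 at rank 15026 and replicate 2 with signal 15.9 at rank 5065. The replicate summits were 13 bp apart. This summit too lay over noncoding RNA genes, 48 bp past the start of T04C12.16 and 192 bp past that of T04C12.25. act-3 (11071690 to 11074498, minus strand, 3 transcripts) had the lowest signal of the 10 genes, 14.2 at rank 16901. Its pooled summit was 290 bp downstream of the nearest start and 940 bp upstream of the start whose window holds it. The replicates had signal 9.66 at rank 9014 and signal 9.23 at rank 17991, and their overlapping summits were 331 bp apart, so no single position repeated at act-3.

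act-4 (chromosome X, 4960621 to 4964413, plus strand) has 2 annotated starts, 4960621 and 4962875, and its regions spread between them. The leading pooled region, at 4961963 to 4962346, had a signal of 43.2 and rank 2001, with the summit inside the longer transcript, 720 bp before the second start. A pooled region 123 bp past the first start had signal 33.7 and rank 2896. The leading region differed between replicates: in replicate 1 it was 77 bp past the first start (signal 19.5, rank 2321) and in replicate 2 it was 777 bp upstream of the second (signal 34.8, rank 1199). With a signal of 43.2 act-4 was the nearest to the reproducible list among the genes outside it. The lowest signal in that list was 50.7, and act-2, at 54.5, was the lowest of the genes inside it.

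act-5 (chromosome III, 13604412 to 13606066, minus strand), the intestinal actin gene, had its leading pooled summit closest to a start, 35 bp upstream. The signal was 20.0 and the rank 7893, near the median leading signal of 19.7 over all genes with a pooled promoter summit. Replicate 2 had its leading region at nearly the same place, 42 bp upstream, with signal 18.1 and rank 3825. In replicate 1 the leading region was 578 bp upstream, with signal 8.45 and rank 11861, and the region at the start itself had signal 5.26 and rank 26454.

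**Figure D2:**
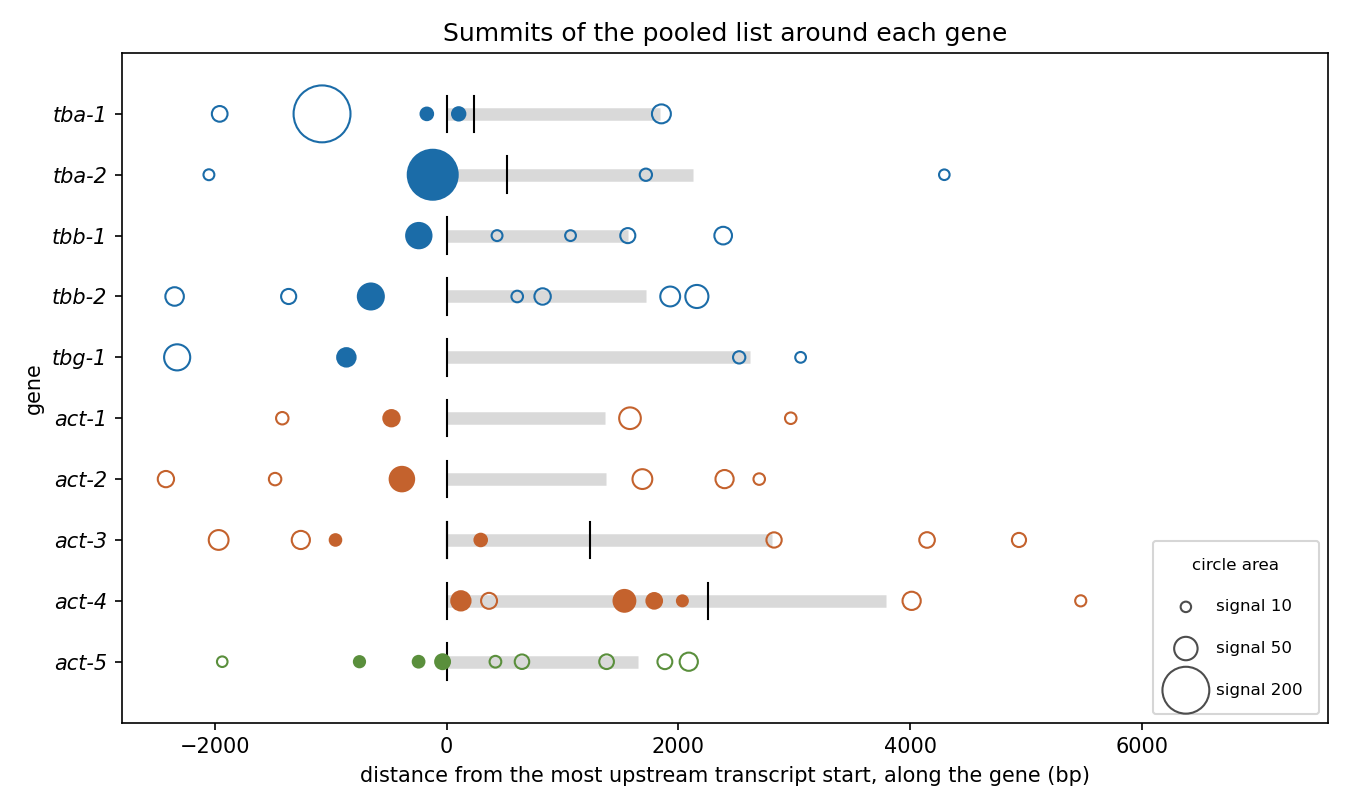
Summits of the pooled list around each gene, by distance in bp from its most upstream annotated start and read along the gene (grey bar, gene body; black tick, transcript start). Circle area is proportional to signal, filled circles lie in a promoter window of the gene and open circles outside it; the large open circle upstream of tba-1 is the peak of signal 295 near cox-5B.

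Over the 10 genes the leading pooled signal ran from 14.2 to 227 with a median of 37.0, and over the 8327 genes with a pooled promoter summit the median was 19.7 with quartiles of 13.9 and 37.2. The signals of tba-1 and act-3 exceeded those of 36.4% and 26.6% of these genes. act-5 was at 50.8%, act-1 at 59.8%, tbg-1 at 69.6% and act-4 at 78.3%. The genes with a reproducible peak stood at 82.9% for act-2, 84.3% for tbb-1, 85.1% for tbb-2 and 96.4% for tba-2. Of the 1584 IDR peaks, 1581 were also among the 1584 pooled regions of highest signal. The higher standing of these genes therefore adds nothing to their being in the reproducible list. Read within the reproducible list alone, 3 of these were near its lower end: act-2, tbb-1 and tbb-2 exceeded 7.21%, 14.9% and 19.4% of the genes bound there, and tba-2 exceeded 80.6%.

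Which replicate gave the better rank to the leading promoter region varied by gene. Among the tubulins 4 of 5 had the better rank in replicate 1 (tba-1, tbb-1, tbb-2 and tbg-1), and tba-2 had it in replicate 2. Among the actins 4 of 5 had the better rank in replicate 2 (act-1, act-2, act-4 and act-5), and act-3 had it in replicate 1. Over the 5591 genes with a promoter summit in both lists 55.0% had the better rank in replicate 1. This count was made after the ranks had been seen, and with 5 genes in each set it describes these genes only. For tba-1, act-3, act-4 and act-5 the leading summits of the 2 replicates lay at different positions, so their ranks are not of 1 site. No source used here gives the depth or quality of the replicates, and their part in these counts was not tested. Of all IDR peaks, 65.5% stood within the first 1584 regions of both replicate lists, whereas tba-2 alone did so among the 4 genes with a reproducible peak: tbb-1 and tbb-2 did so only in replicate 1, and act-2 only in replicate 2.

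**Figure D3:**
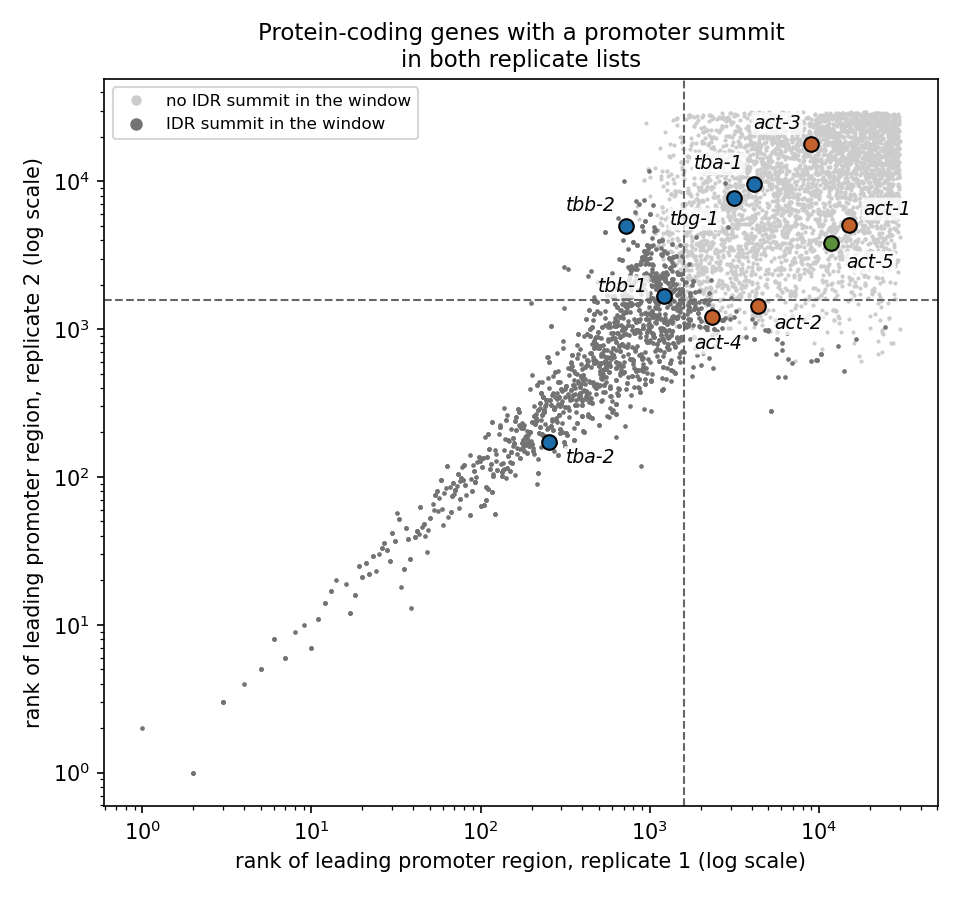
Rank of the leading promoter region in replicate 1 (x) and replicate 2 (y), both on log axes, for the 5591 protein-coding genes with a summit in both lists (light grey, no IDR summit; dark grey, IDR summit) and for the 10 named genes (blue tubulins, orange act-1 to act-4, green act-5). Dashed lines mark rank 1584, the number of IDR peaks; tba-2 is the 1 named gene below both lines.

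Set by where the genes are used, the broadly used tubulins and the actins overlapped in signal, rank and distance. The 5 tubulins had pooled signals from 16.1 to 227 (median 58.3) and ranks from 209 to 12806, and 3 of the 5 had a reproducible peak. act-1 to act-4 had signals from 14.2 to 54.5 (median 33.6) and ranks from 1430 to 16901, and 1 of the 4 had such a peak, where the share over all genes was 7.71%. The intestinal actin gene act-5, with signal 20.0, lay within the range of both sets, and as 1 gene it gives no spread of its own. The tubulin summits lay between 865 bp before and 104 bp after the nearest start, and those of act-1 to act-4 between 720 bp before and 290 bp after it. The classes come from general knowledge of the genes and not from these libraries, which were made from whole animals, so binding in few cells and weak binding in many cannot be told apart.

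Tubulin genes used mainly in neurons were set beside the 10 genes. Of mec-7 and mec-12 (touch receptor neurons) and tba-6, tba-9 and tbb-4 (ciliated neurons), 0 of 5 had an IDR promoter summit, 1 of 5 had a pooled one and 0 of 5 had one in both replicate lists. The shares over all protein-coding genes were 7.71%, 41.7% and 28.0%, so with 5 genes these counts are not set apart from the rest. mec-7, the gene in the pooled list, had a signal of 15.7 at rank 13492, with the summit 137 bp upstream. That signal was below those of tba-1 (16.1) and the other tubulins named above and above that of act-3 (14.2). mec-12 and tba-9 were listed in replicate 1 alone, with signals of 7.48 and 6.83, tba-6 in replicate 2 alone, with 8.19, and tbb-4 in no list.

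In the pooled list each of the 10 genes had a summit near its end, inside or past it, as well as one in its promoter window. A pooled summit lay within 500 bp of the end of 10 of 10 genes, against 33.8% of all genes. An IDR summit lay there for 0 of 10, against 2.00% of all genes, a count that 10 genes cannot tell from the background. At tba-1 the end signal was 32.6, against 16.1 at the promoter. At act-1 the values were 42.7 and 24.1, at act-3 21.2 and 14.2, and at act-5 30.2 and 20.0. In these 4 genes the end signal was the higher one, and in the other 6 the promoter signal was. That comparison was not made over all genes. The −log10 q of the pooled end regions ran from 0.108 at tba-2 to 3.05 at tbb-2. It was 0.114 at tbg-1, 0.494 at tbb-1 and 0.539 at act-3, so evidence at some ends was weak. The end region of tba-1 lay in the promoter window of drsh-1, the gene for the microRNA processing enzyme Drosha 56 bp downstream, and those of tba-2 and tbb-1 in the windows of C47B2.2 and K01G5.8. The end regions often differed between replicates: tba-1 had ranks of 1716 and 27276, the end region of act-3 had an overlapping region in replicate 2 alone, and that of act-5 in replicate 1 alone. Replicate 2 had another region within 500 bp of the end of act-5, with signal 16.9 at rank 4406. The highest end region, at tbb-2 with signal 48.5 and 442 bp past the gene, had rank 971 in replicate 1. The replicate 2 region that overlapped it, at rank 2426, had its summit 246 bp past the gene. That summit was nearer to a second pooled region, 212 bp past the gene with signal 35.9. This comparison was chosen after the regions had been seen.

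Because act-1 to act-4 are near-identical copies, the share of sequence found once in the genome was computed for each gene. All 36-base words of the promoter window were unique for tba-1, tba-2, tbb-1, tbb-2, tbg-1, act-3 and act-4. The share was 99.2% for act-5, 99.0% for act-2 and 87.5% for act-1, and 66.9% of all promoter windows were fully unique. Within the leading regions the share was 100% for 9 genes and 97.4% for act-5. Coding sequence was different: 0% of the 36-base words of act-1 and act-3 were unique, 57.7% of those of act-2 and 81.1% of those of act-4. With 50-base words the shares were 0%, 0%, 68.1% and 88.2%. Coding exons held from 0 to 2 summits per gene in the pooled and replicate lists, with 0 in all 3 lists for act-1, act-2, act-3 and also tba-1, where 99.5% of the coding words were unique. The same count was not made over all genes, so whether 0 is unusual is not known. No source used here says how reads that match several places were treated, and their part in these counts was not tested. Repeated sequence in the act-1 promoter window lay outside its leading region.

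Base composition under the leading summits varied by gene. The 200 bp windows held from 31.5% G and C at tbg-1 to 50.5% at tbb-2, against a median of 43.0% for IDR peaks and 33.0% for windows upstream of coding starts. The genes with a reproducible peak held 41.5% (tba-2), 44.5% (tbb-1), 50.5% (tbb-2) and 46.5% (act-2). act-1, without such a peak, held a share between those of act-2 and tbb-2. Of 9 further words searched on both strands, GAGAGA was in the window of tba-2 alone and in 39.2% of IDR windows, 10.9% of flanks and 16.3% of windows upstream of starts. TGATAA was in 5 windows (tba-1, tbb-1, tbg-1, act-2 and act-5), and in 11.6%, 17.8% and 22.7% of those 3 sets. TATAAA was in the windows of tba-1, act-1 and act-5, against 13.1%, 20.4% and 30.4%. TTTCAG, which matches the worm splice acceptor, was in those of tba-1 and act-5, against 18.8%, 39.7% and 37.0%. CCGCCC was in the act-5 window, against 10.8%, 3.35% and 5.91%. The word CTGCGTC was in 0 of 10 windows, against 18.0%, 1.52% and 3.24%. Also in 0 of 10 was GGTCTC, against 15.2%, 6.85% and 5.28%. CACGTG was in 0 of 10 as well, against 6.44%, 4.01% and 4.22%. For CGCGAC, whose matches can overlap those of GCGCGC, the count was 0 of 10, against 9.91%, 2.30% and 2.04%. A word's presence or absence in these letters is a description only.

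Other alpha- and beta-tubulin genes, and genes whose products fold, modify or organise tubulin and actin, were counted in the same way. Of 86 such genes found in the annotation, 12 (14.0%) had an IDR promoter summit, against 7.71% of all protein-coding genes. Among the chaperones, 7 of 19 genes of the CCT chaperonin, of prefoldin and of the tubulin folding cofactors (36.8%) had one. This list thus gave 7 of the 12, and the other lists, given below, each gave at most 2. The CCT chaperonin folds newly made actin and tubulin, and prefoldin delivers them to it. cct-1 had a pooled signal of 512 at rank 68, cct-8 459 at rank 83, cct-6 427 at rank 96 and cct-7 86.9 at rank 740. The prefoldin gene pfd-1 had 186 at rank 262, pfd-6 140 at rank 388 and pfd-3 61.7 at rank 1180. Signals of cct-1, cct-8 and cct-6 were thus above that of tba-2. The regions of cct-1, cct-8, cct-6, cct-7, pfd-1 and pfd-6 also lay in promoter windows of another protein-coding gene (mig-5, Y55F3AR.2, alh-9, T10B5.4, F01G4.6 and rde-2), and that of pfd-3 did not.

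Of the other tubulin lists, 0 of 7 alpha-tubulin genes, 0 of 4 beta-tubulin genes and 0 of 3 genes of the gamma-tubulin complex had an IDR promoter summit. Beside the share of 7.71% over all genes, such counts in short lists are near the background, and they include the 5 neuronal genes above. Their highest pooled signals were 24.9 at tba-7, 16.4 at ben-1, the beta-tubulin gene hit by benzimidazole drugs, and 38.6 at mzt-1. Among tubulin modifying enzymes 1 of 10 had one, ttll-4, a tubulin glutamylase gene (signal 143, rank 380). Among genes that bind or sever microtubules 2 of 17 had one, spas-1, which encodes the severing enzyme spastin (140, rank 391), and cls-2, a CLASP gene (99.1, rank 622). The cls-2 summit lay near the upstream edge of its window, in a region that was also in the promoter window of R107.5. Of the Arp2/3 complex, which starts branched actin filaments, 1 of 7 had one, arx-5 (259, rank 179). Of 19 genes of actin dynamics, 1 had one, cap-2, the beta subunit of the actin capping protein, with the highest signal of all these lists (908, rank 29) in a region shared with gmps-1. The capping subunit gene thus ranked above every tubulin and actin gene in the pooled list.

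**Figure D4:**
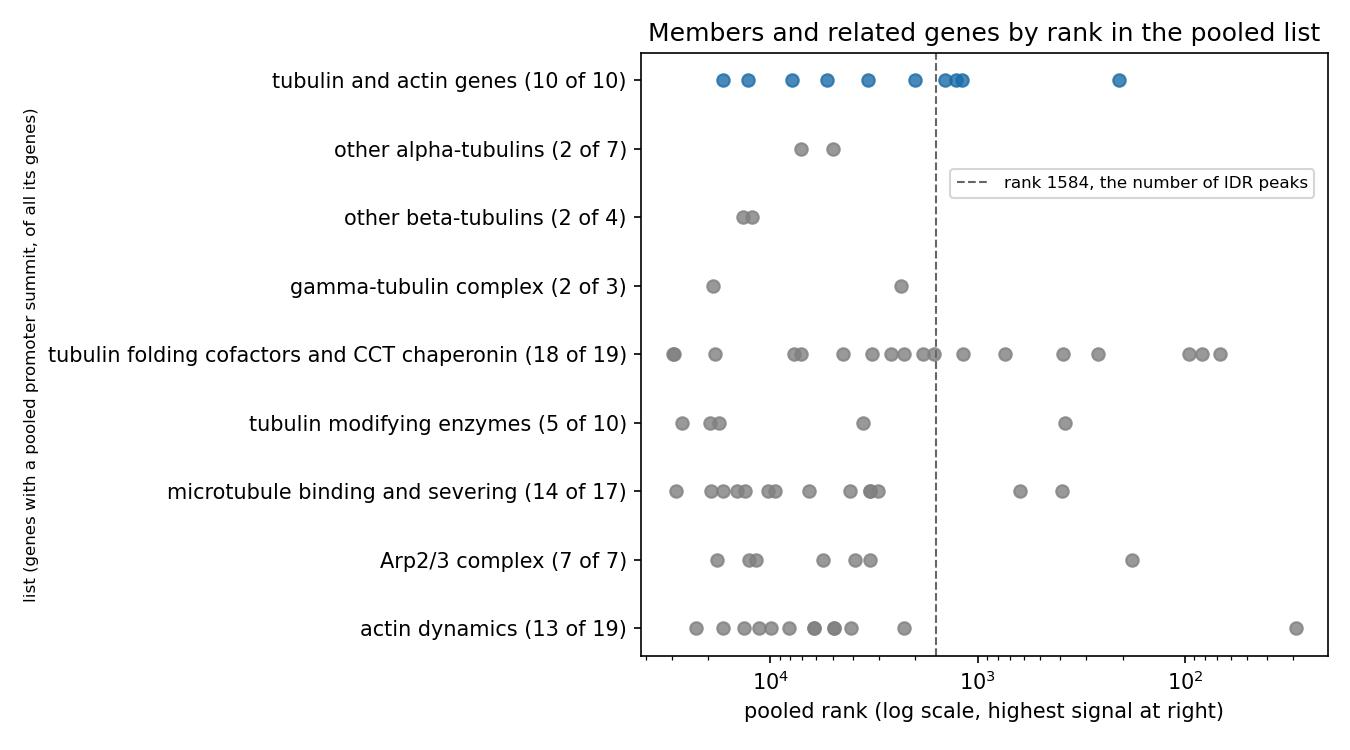
Rank in the pooled list (log axis, highest signal at right) of the leading promoter region of the 10 tubulin and actin genes (blue) and of each list of related genes (grey); row labels give the genes with a pooled promoter summit out of those in the list. The dashed line marks rank 1584. To the right of tba-2 at rank 209 lie cap-2 at rank 29, 3 CCT genes at ranks 68 to 96 and arx-5 at rank 179.

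The genes most like tba-2 in both replicate lists were found by distance in log2 signal over the 2 samples, among 5591 genes. atx-2, the worm ataxin-2 gene, and ecps-1 share 1 region and had signals of 106 and 108, at a distance of 0.11, against 114 and 107 for tba-2. eef-2, which encodes a translation elongation factor, had 120 and 99.7 at a distance of 0.13, in a region shared with clsp-1. With 2 samples this likeness describes only the size of the signal. As a mark of the series as a whole, the highest region of the pooled list lay at rcat-1 itself, the tagged gene, with a signal of 4055. The strain carries an inserted transgene, and its part in that signal was not tested.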

How the data were processed

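ChIP-seq peak lists of 2 replicate libraries on the ce11 build were used, namely the IDR list and relaxed lists of replicate 1, replicate 2 and both pooled, all deposited by the authors in narrowPeak form. The signal of each region is a value deposited by the authors, on a scale that no source used here states, so regions were described and ranked by it inside 1 list at a time. Values of −log10 q, also deposited, describe the regions and filter nothing. Each summit is the region start plus the offset that the authors deposited. Per the deposited list of files, each relaxed list derives from an alignment of the library and a control alignment shared by both replicates, so the lists are not fully independent. No source used here gives the aligner, caller, IDR threshold or read depth, so depth per sample is unknown and no counting error could be attached. Pooled and IDR values are the authors' and have no SD. The ce10 lists were not used here.

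Genes came from Ensembl release 115 and sequence from the RefSeq WBcel235 genome. Chromosome lengths were compared with the lists, and 0 regions passed a chromosome end. Positions are 1-based. A summit from 1000 bp upstream to 200 bp downstream of a transcript start of a protein-coding gene counted for that gene, ranks are by signal, and regions of different lists were matched on an overlap of at least 1 bp. Proteins were translated from the genome for identity. Python 3.11.15, pandas 2.3.3 and Biopython 1.88 were used, and the window counts were tested on simulated data. No test was run: there is 1 group, and genes are not replicates. Named genes are the 10 genes, rcat-1 and the 3 genes nearest tba-2 in signal. Related genes are named where they had an IDR promoter summit, or were the highest in a list with none. Genes that share a region with the 10 genes are also named, as are some that share one with the other named genes. The neuronal tubulins were named as a class for comparison, and cox-5B, drsh-1, C47B2.2 and K01G5.8, whose windows hold regions next to these genes, were named after their values were seen. Members and lists were chosen with earlier results of these data known, and tmd-1, also listed, was not matched in the annotation. Alternatives were other windows, any overlap, the most upstream start, the IDR peaks of higher signal, and each replicate left out.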

Additional observations from a re-analysis of the deposited data

How the results depend on the processing

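Of the 10 genes, 4 had an IDR promoter summit, against 7.71% of all genes. The count was 1 (tba-2) when only the higher-signal 50% of IDR peaks were kept (4.57% of all genes) and 3 with a window of 500 bp upstream to 100 bp downstream (tbb-2 left, 6.31%). It was 5 with a window of 2000 bp upstream to 500 bp downstream (9.81%) or with any overlap (8.16%), both of which brought in the peak near cox-5B for tba-1. It was 4 from the most upstream start alone (7.33%). Using the first 1584 regions of a single replicate in place of the IDR list, it was 3 without replicate 1 (act-2, act-4 and tba-2, 6.91%) and 3 without replicate 2 (tba-2, tbb-1 and tbb-2, 7.90%). In the 500 bp window 6 genes had a summit in both replicate lists (18.7% of all genes) and 7 in the pooled list (30.6%), against 10 and 10. The most upstream start gave 8 in both replicate lists (24.8%). The count of related genes, 12, ran from 11 to 17 over all alternatives, the 17 being without replicate 2. Against the SD of the 2 replicate values of the same gene, the rank of the leading region changed by more in 4 of 10 genes without replicate 1 and 4 without replicate 2, and its distance from the start in 3 and 7. That tolerance is wide where the replicates differ: act-5 went from rank 7893 to 3825 without replicate 1 and stayed within it. No paired analysis was possible because there is 1 group. The unknown read depth limits how firmly any single region of the relaxed lists can be read.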
